A study of Mus musculus with 6 samples.

Results

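Wnt signalling genes were followed through 6 mouse heart RNA-seq libraries: the Wnt ligands, their Frizzled receptors, and the secreted inhibitors of the Sfrp and Dkk families together with Frzb. The members were all genes whose symbol begins with Wnt, Fzd, Sfrp or Dkk and a digit, plus Frzb, and the rule used no measured value. It found 33 genes among the 29385 in the deposited tables, of which 15 are Wnt genes, 10 Fzd genes, 4 Sfrp genes and 3 Dkk genes. The study asked how a Cas13d RNA-targeting system, carried by an adeno-associated virus (AAV), affects the transcriptome of hearts with 2 Myh6 alleles called RH and RQ, which the labels leave unexplained. Myh6 encodes the main myosin heavy chain of the adult mouse heart. The first group was Myh6RH/+ given vehicle (RH/+ vehicle), the second was Myh6RH/RQ given vehicle (RH/RQ vehicle), and the last was Myh6RH/RQ given AAV-hpCas13d (treated RH/RQ), with 2 libraries each. All 3 groups therefore carry the RH allele, and none is wild type. Mice were dosed as newborns and hearts were collected 12 months later. The labels give no strain, no guide and no promoter for the AAV, and nothing in them states that each library is its own animal. The spread behind every p-value is therefore that between these libraries, and it may be technical.

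Wnt proteins are secreted lipid-modified signals that bind Frizzled receptors. With the coreceptors Lrp5 or Lrp6 they stabilise beta-catenin, which switches on target genes, and through other coreceptors they act on cell shape and calcium without beta-catenin. Sfrp proteins and Frzb carry a Frizzled-like domain that binds Wnts outside the cell, and Dkk1 and Dkk2 bind Lrp5 and Lrp6. In the heart the pathway is known from development, where it acts at several steps, and in the adult from fibroblasts and scar formation after injury.

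Libraries held between 36269261 and 51017058 reads assigned to genes, and 17.2% to 22.4% of them fell on mitochondrial genes. Levels are in CPM, the reads of a gene scaled to a fixed total per library. A count of 0 allows up to 3 reads, or between 0.0588 and 0.0827 CPM by library, for counting error only. Myh6 stood between 14297 and 18251 CPM in all 6 libraries, on total RNA of the gene and not by allele. Xist was at 265 to 326 CPM in the RH/+ vehicle and treated libraries and at most 0.274 CPM in the RH/RQ vehicle libraries, while Ddx3y, a Y-linked gene, had 0 reads in the first 4 and 85.2 CPM in both of the others. Sex therefore cannot be told apart from genotype between the vehicle groups, or from treatment between the RH/RQ groups. It did not differ between treated RH/RQ and RH/+ vehicle, but genotype and treatment both did. Genotype and treatment cannot be told apart in that comparison, and no group received a control AAV. The 6 cardiomyocyte markers summed to 48899 and 52804 CPM in RH/+ vehicle and to between 43487 and 47036 CPM in the 4 RH/RQ libraries. Between the vehicle groups limma called 0 of the 6 lower (2 at an unadjusted p under 0.05), edgeR called 1 and DESeq2 called 4. Among atrial genes, Myl7, Sln and Bmp10 were under 1 CPM on average and Myl4 was at 1.57 CPM. Nppa, the atrial natriuretic peptide, which stressed ventricles also express, stood at 110 to 143 CPM in the vehicle libraries and at 428 and 753 CPM in the treated ones. Its log2 fold change in treated against vehicle RH/RQ hearts was 2.30 (limma adjusted p = 2.11e-09). The part of these markers in the results was not tested.

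Of the 33 members, 26 had reads in every library, 18 had a mean of at least 1 CPM and 7 had at most 10 reads over all 6 libraries together. The 18 were made up of 5 of 15 ligands, 9 of 10 receptors and 4 of 8 inhibitors. Levels between genes are given here as CPM per kb of exon, averaged over the 6 libraries. Fzd4 led at 13.1, followed by Fzd6 at 7.02 and the inhibitor Sfrp1 at 5.62. Next came Dkk3 at 4.24, Fzd1 at 3.55, Frzb at 3.13 and Fzd7 at 3.03. The ligands lay lower, with Wnt9a at 2.53 and Wnt5a at 2.11 ahead of Fzd2 at 1.63, and Wnt5b at 1.34 and Wnt11 at 1.31 ahead of Fzd8 at 1.23. The order of neighbours is loose, since Frzb and Fzd7, Wnt9a and Wnt5a, and Wnt5b, Wnt11 and Fzd8 overlapped across libraries. In both RH/+ libraries Frzb (2.08 and 1.73) lay below Wnt9a (2.46 and 2.06) and, in treated hearts, the mean of Wnt5a (1.80) lay below that of Fzd2 (1.87), so the order over all 6 libraries does not hold in each group. Summed over a family, receptor RNA came to between 29.3 and 35.6 CPM per kb, ligand RNA to between 7.40 and 9.31, and inhibitor RNA to between 8.98 and 17.8.

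**Figure D1:**
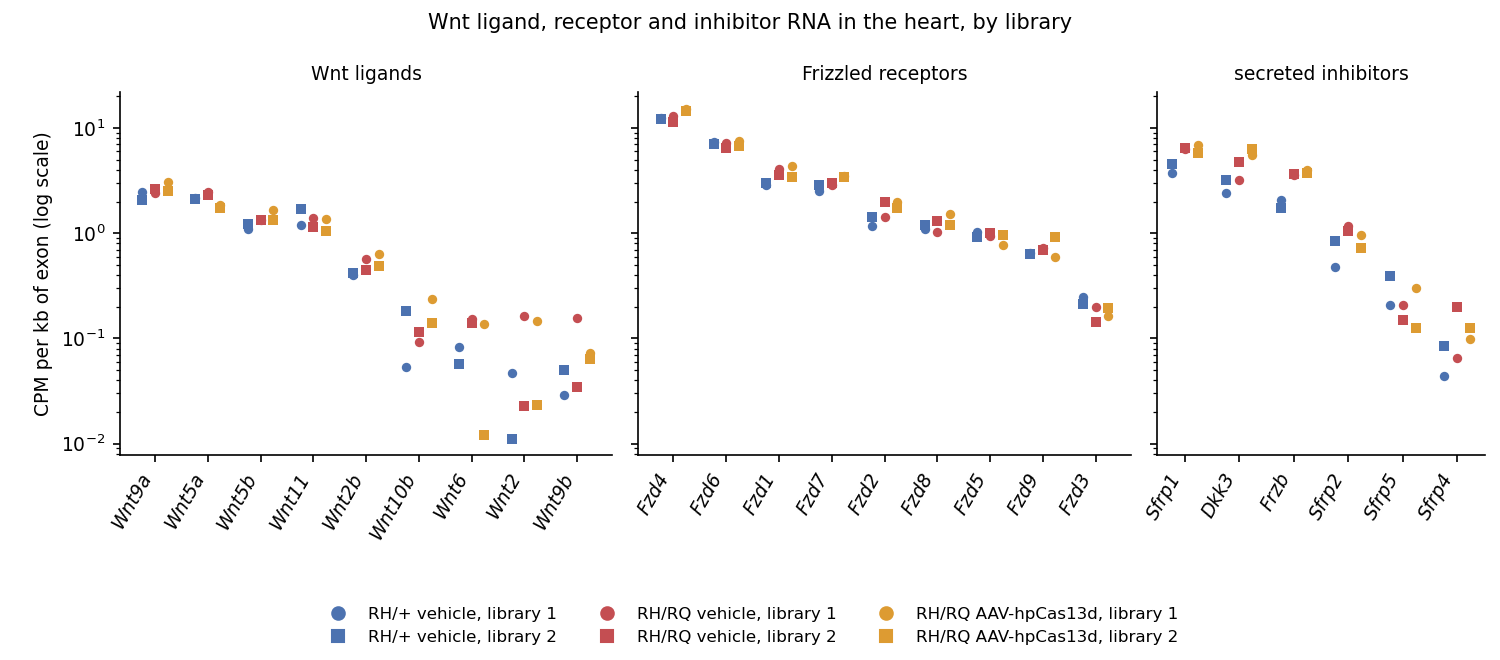
RNA level of the 24 tested members in CPM per kb of exon on a log axis, 1 point per library, coloured by group and shaped by library number, with members ordered by mean level within each role. Fzd4 (mean 13.1), Fzd6 (7.02) and Sfrp1 (5.62) stand highest, and Wnt2, Wnt6 and Wnt9b scatter widely and rest on few reads.

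Among the 3 roles, limma called differences in the secreted inhibitors alone. Frzb and Sfrp1 were higher in RH/RQ vehicle than in RH/+ vehicle hearts, and Frzb, Sfrp1 and Dkk3 were higher in treated RH/RQ than in RH/+ vehicle hearts. Between treated and vehicle RH/RQ hearts limma called no member, and edgeR and DESeq2 called Wnt5a lower. Calls are those with an adjusted p under 0.05 from limma on log2(CPM + 1), fitted to all 16804 genes that passed a filter on low counts, with Benjamini-Hochberg adjustment over all of them. Fold changes on this scale understate the change of low genes.

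Few members were called in any comparison. Between the vehicle groups limma called 2 of the 24 tested members (8.33%), both higher, where it called 4.99% of all genes tested and 3.48% as higher; edgeR and DESeq2 also called 2, where they called 5.46% and 5.64% of all genes. Between treated and vehicle RH/RQ hearts limma called 0 of 24, with 3 at an unadjusted p under 0.05 (Dkk3, Fzd4 and Wnt5a), where it called 2.05% of all genes and 12.5% had such an unadjusted p, as did 12.5% of the members. There edgeR and DESeq2 called 1 of 24 each, where they called 2.27% and 2.2% of all genes. In treated RH/RQ against RH/+ vehicle hearts limma called 3 of 24 (12.5%), all higher, where it called 2.86% of all genes and 2.33% as higher. With edgeR and DESeq2 the count was also 3, beside 2.45% and 2.64% of all genes. Counts this small do not set the families apart from other genes. The 24 passed a filter on low counts and are not all of the 33 members.

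Frzb, also known as secreted frizzled-related protein 3, binds Wnts in the extracellular space and was first described in cartilage. Its gene lies on the minus strand of chromosome 2 at 80411970 to 80447625 (GRCm38, GENCODE M21), and overlaps no other annotated gene. Frzb stood at 6.72 and 5.59 CPM in RH/+ vehicle, at 11.6 and 11.7 CPM in RH/RQ vehicle and at 12.9 and 12.1 CPM in treated RH/RQ hearts. Both RH/+ libraries were low, the other 4 were high, and no RH/RQ library overlapped with RH/+. The group means were 6.15 ± 0.802, 11.7 ± 0.0885 and 12.5 ± 0.568 CPM (SD, n = 2 each). Against RH/+ vehicle, Frzb rose in RH/RQ vehicle hearts by 0.83 on the log2 scale (SE 0.15; limma adjusted p = 0.00113). In treated RH/RQ hearts the log2 fold change against RH/+ vehicle was 0.92 (SE 0.15; limma adjusted p = 0.000599). Treated and vehicle RH/RQ hearts differed by a log2 fold change of 0.09 with a 95% interval of -0.21 to 0.40 (limma adjusted p = 0.858). Its lower end, -0.21, is smaller in size than the rise of 0.83 between the vehicle groups. Both comparisons use the same RH/RQ vehicle libraries, sex differed in both, and the spread is that between 2 libraries per group. The interval therefore cannot decide whether treatment changed Frzb.

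Sfrp1, a secreted Wnt-binding protein with the same Frizzled-like domain, lies on the plus strand of chromosome 8 at 23411502 to 23449632. Sfrp1 stood at 16.3 and 19.9 CPM in RH/+ vehicle, at 27.5 and 28.5 CPM in RH/RQ vehicle and at 30.1 and 25.1 CPM in treated RH/RQ hearts. Both RH/+ libraries lay below the other 4, and the treated libraries fell on either side of the RH/RQ vehicle pair. Sfrp1 rose in RH/RQ vehicle against RH/+ vehicle hearts by 0.61 on the log2 scale (SE 0.13; limma adjusted p = 0.00429). Treated RH/RQ hearts were higher than RH/+ vehicle by 0.59 (SE 0.13; limma adjusted p = 0.0095) and differed from vehicle RH/RQ by -0.02, with a 95% interval of -0.28 to 0.24. Without RH/+ replicate 1, the limma adjusted p became 0.155 for the vehicle groups and 0.269 for treated RH/RQ against RH/+ vehicle. Without treated replicate 1, the latter was 0.117.

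Dkk3 is a divergent Dickkopf protein whose action on Wnt signalling is less settled than that of Dkk1. Its gene lies on the minus strand of chromosome 7 at 112116017 to 112159057. Dkk3 stood at 8.03 and 10.8 CPM in RH/+ vehicle, at 10.8 and 16.1 CPM in RH/RQ vehicle and at 18.7 and 21.1 CPM in treated RH/RQ hearts. Both treated libraries were the highest, and the vehicle groups met at 10.8 CPM. Treated RH/RQ hearts were higher than RH/+ vehicle by 1.01 on the log2 scale (SE 0.17; limma adjusted p = 0.000745). The vehicle groups differed by 0.46 (SE 0.17; limma adjusted p = 0.128) and treated from vehicle RH/RQ by 0.55 (SE 0.17; limma adjusted p = 0.1), and neither passed. Both changes depended on which RH/RQ vehicle library was kept. Without replicate 2 of that group the treated-to-vehicle change was 0.82 and the change between the vehicle groups was 0.19. Without replicate 1 they were 0.28 and 0.73.

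**Figure D2:**
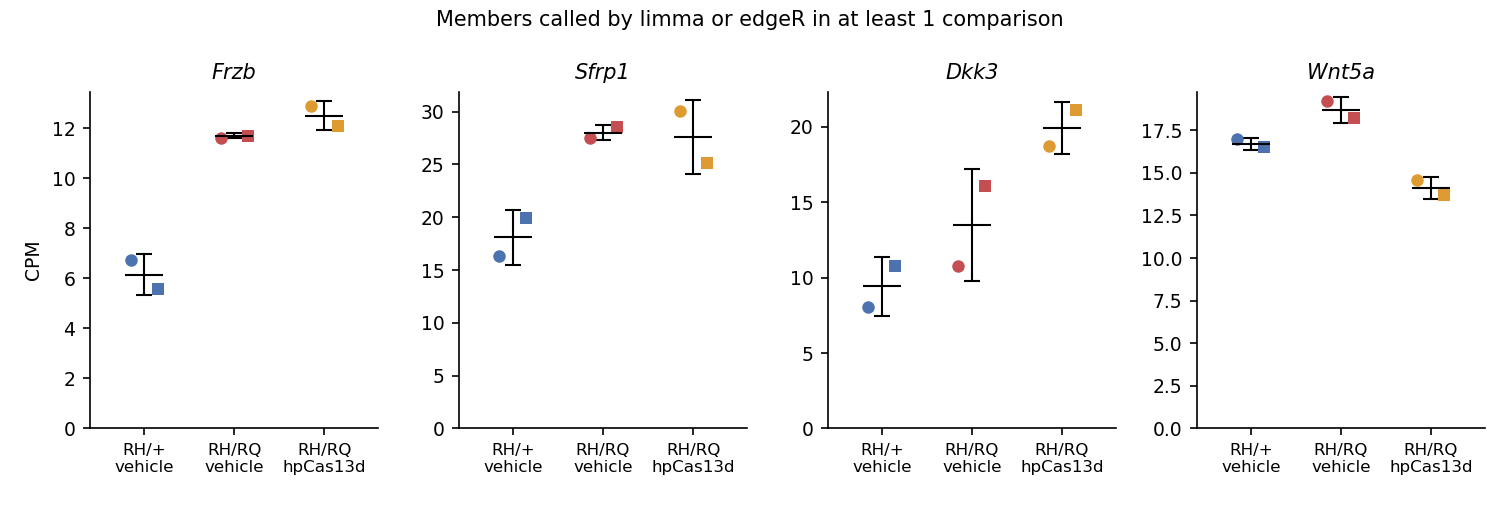
CPM of the 4 members called by limma or edgeR in at least 1 comparison, with 1 point per library (circle, library 1; square, library 2) and the group mean ± SD in black, on linear axes that start at 0. Frzb and Sfrp1 are low only in RH/+ vehicle hearts, Dkk3 is highest in the treated libraries (18.7 and 21.1 CPM), and Wnt5a is lowest there (14.6 and 13.7 CPM).

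The authors' deposited table held for Frzb a log2 fold change of 0.873 (adjusted p = 0.000436) between the vehicle groups and 0.917 (adjusted p = 0.000941) for treated RH/RQ against RH/+ vehicle. For Dkk3 in the latter comparison the authors' deposited table held 0.97 (adjusted p = 7.27e-05). For Sfrp1 the authors' deposited table held 0.579 (adjusted p = 0.00201) between the vehicle groups and 0.5 (adjusted p = 0.0639) for treated RH/RQ against RH/+ vehicle, so the latter did not pass there.

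The other inhibitors were lower and none was called. Sfrp2, which fibroblasts secrete, stood at 1.02 and 1.83 CPM in RH/+ vehicle, at 2.53 and 2.24 CPM in RH/RQ vehicle and at 2.07 and 1.56 CPM in treated RH/RQ hearts. The RH/RQ vehicle libraries were the highest, and the treated and RH/+ libraries overlapped. Its log2 fold changes were 0.50 between the vehicle groups (limma adjusted p = 0.158) and -0.27 between treated and vehicle RH/RQ (limma adjusted p = 0.608). Sfrp4, another Wnt-binding protein, ranged from 0.184 to 0.825 CPM over the 6 libraries and Sfrp5, which is expressed in fat, from 0.237 to 0.752 CPM. The highest Sfrp5 value was in RH/+ replicate 2, whose 5 adipocyte markers summed to 7.22 CPM against 0.0258 to 0.893 CPM in the other libraries; their part in the Sfrp5 value was not tested. Dkk2, an antagonist at Lrp6, had 19 reads in all, and Dkk1 had 1 read over the 6 libraries.

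In sum, inhibitor RNA came to 32.9 and 39.3 CPM in RH/+ vehicle, 53.1 and 59.7 CPM in RH/RQ vehicle and 64.8 and 60.7 CPM in treated RH/RQ hearts. Of the 6 tested inhibitors, limma called 2 higher between the vehicle groups and 3 in treated RH/RQ against RH/+ vehicle. It called 3.48% and 2.33% of all genes as higher there, and counts out of 6 are small. The median log2 fold changes below are also from limma. For the 6 inhibitors they were 0.48 between the vehicle groups, 0.02 between treated and vehicle RH/RQ, and 0.41 between treated RH/RQ and RH/+ vehicle. The medians of all genes tested were 0.04, 0.04 and 0.08 in the same order.

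Cardiac fibroblasts express several of these inhibitors, and the summed fibroblast markers were also higher in RH/RQ than in RH/+ vehicle hearts. The 8 fibroblast markers summed to between 2170 and 2579 CPM in RH/+ vehicle, between 2852 and 3063 CPM in RH/RQ vehicle and between 3253 and 3813 CPM in treated RH/RQ hearts. By limma, 4 of the 8 were higher between the vehicle groups (Col15a1, Dcn, Lum and Mfap4), and edgeR and DESeq2 also called 4. Tcf21 alone was lower on average in RH/RQ vehicle, at 10.5 against 12.4 CPM, with overlapping libraries. Its log2 fold change was -0.22 (limma adjusted p = 0.51), and -0.03 in treated RH/RQ against RH/+ vehicle. In treated RH/RQ against RH/+ vehicle hearts limma called 7 of 8 higher, all but Tcf21, while edgeR called 4 and DESeq2 called 6. Between treated and vehicle RH/RQ hearts limma called 0 of 8 higher and 1 lower, as did edgeR and DESeq2. That gene was Col15a1, with a log2 fold change of -0.45 (limma adjusted p = 0.0117). All 8 markers were measured above 0. In bulk tissue, more cells of a type and more RNA per cell cannot be told apart.

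The 7 markers of activated fibroblasts are a separate list. Their sum stood between 206 and 239 CPM in RH/+ vehicle, between 544 and 570 CPM in RH/RQ vehicle and between 306 and 319 CPM in treated RH/RQ hearts. Of the 6 tested, limma called 5 higher between the vehicle groups, 3 lower in treated than in vehicle RH/RQ hearts (Cilp, Col1a1 and Col3a1) and 4 higher in treated RH/RQ than in RH/+ vehicle hearts, where edgeR called 3 and DESeq2 called 2. In treated against vehicle RH/RQ hearts the log2 fold changes of Postn, Comp and Fn1 were -0.24, -0.23 and -0.04 (limma adjusted p = 0.379, 0.748 and 0.917). Col1a1 and Col3a1, the chains of type I and type III collagen, fell in treated against vehicle RH/RQ hearts, with log2 fold changes of -1.17 and -1.15 (limma gave adjusted p = 9.21e-07 and 8.97e-08), while the changes of Frzb and Sfrp1 in the same comparison were 0.09 and -0.02. The difference between these genes was not tested as such. Macrophage markers, of which limma called 5 of 7 higher between the vehicle groups and 0 of 7 (3 at an unadjusted p under 0.05) between treated and vehicle RH/RQ, where edgeR and DESeq2 called 2 lower (Csf1r and Cx3cr1), summed to 134 CPM in both RH/+ libraries, to between 185 and 193 CPM in RH/RQ vehicle and to between 146 and 168 CPM in treated RH/RQ hearts.

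Levels were also set against the fibroblast list. Gsn alone made up between 52.3% and 63.1% of that sum, and limma did not call it between the vehicle groups (log2 fold change 0.13) or between the RH/RQ groups (0.41, limma adjusted p = 0.128). Per 1000 CPM of summed fibroblast markers, Frzb stood at 3.10 and 2.17 CPM in RH/+ vehicle, 3.79 and 4.11 CPM in RH/RQ vehicle and 3.39 and 3.73 CPM in treated RH/RQ hearts. All 4 RH/RQ libraries were still above both RH/+ libraries. Sfrp1 on that scale was 7.49 and 7.72 in RH/+ vehicle, 8.97 and 9.98 in RH/RQ vehicle and 7.89 and 7.72 in treated RH/RQ hearts, so the treated and RH/+ libraries met. Dkk3 was 3.70 and 4.20, then 3.53 and 5.65, then 4.90 and 6.48, and the treated libraries overlapped with RH/RQ vehicle but not with RH/+ vehicle. With Gsn left out of the sum, a choice made after seeing the data, Frzb per 1000 CPM of the other 7 markers was 7.53 and 5.87 in RH/+ vehicle, 7.95 and 9.01 in RH/RQ vehicle and 8.36 and 9.19 in treated RH/RQ hearts, again with no overlap between RH/+ and RH/RQ. Sfrp1 on this scale was 18.2 and 20.9, then 18.8 and 21.9, then 19.5 and 19.0, and all groups overlapped. Dkk3 was 9 and 11.4, then 7.41 and 12.4, then 12.1 and 16.0, with the treated libraries above RH/+ vehicle. Without Gsn, Dcn alone made up most of the sum in each library, for example 526 of 893 CPM in RH/+ replicate 1. Both scales thus rest mainly on a single gene. Between the vehicle groups Mfap4 and Col15a1 rose more than Frzb (limma log2 fold changes 1.00 and 1.05 against 0.83), and the other markers less. Frzb therefore did not exceed every marker on the list. The part of the fibroblast markers in these results was not tested further.

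**Figure D3:**
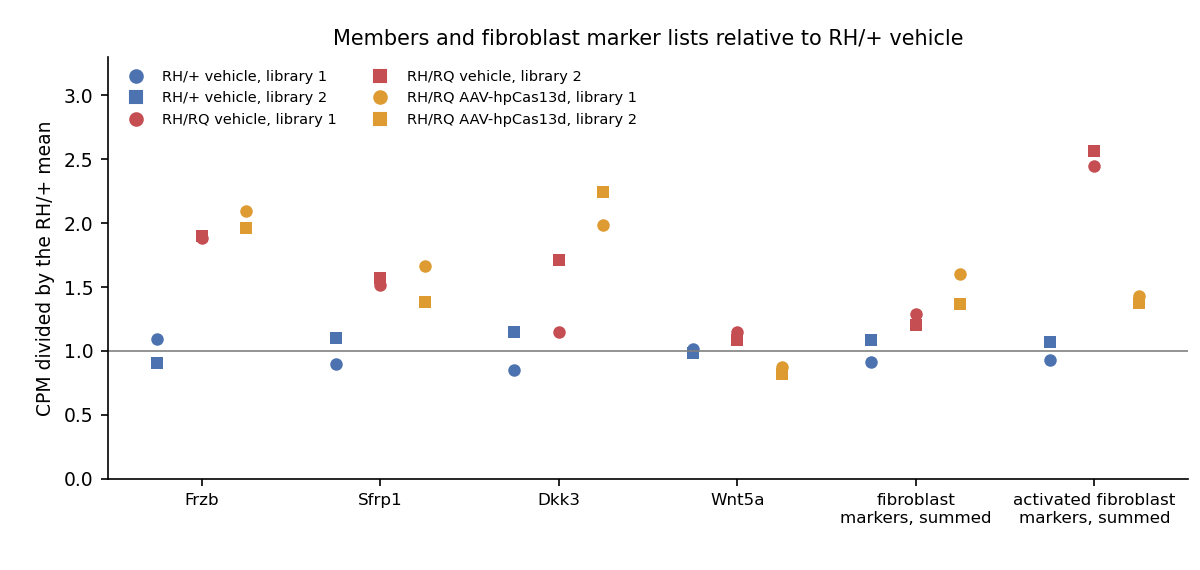
CPM of Frzb, Sfrp1, Dkk3 and Wnt5a and the summed CPM of the fibroblast and activated fibroblast marker lists in each library, divided by the mean of the 2 RH/+ vehicle libraries, on a linear axis from 0 with a line at 1. The treated libraries stand at 2.10 and 1.97 for Frzb, 1.61 and 1.37 for the fibroblast list, most of which is Gsn, and 1.43 and 1.38 for the activated list, which was at 2.44 and 2.56 in RH/RQ vehicle hearts.

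No Frizzled receptor was called by limma in any comparison, nor by edgeR or DESeq2. By limma 1, 1 and 4 of the 9 tested had an unadjusted p under 0.05 between the vehicle groups, between the RH/RQ groups, and between treated hearts and RH/+ vehicle, respectively, where 17.1%, 12.5% and 15.1% of all genes had. In the last comparison edgeR gave 2 and DESeq2 gave 0. Fzd4, which also serves as the receptor for Norrin in retinal vessels, stood at 83.6 and 82.2 CPM in RH/+ vehicle, at 86.7 and 76.9 CPM in RH/RQ vehicle and at 102 and 97.2 CPM in treated RH/RQ hearts. Both treated libraries were above the other 4. Its change against RH/RQ vehicle was a log2 fold change of 0.29 (95% interval 0.09 to 0.48; limma adjusted p = 0.152), and 0.23 by edgeR (adjusted p = 0.335). Fzd4 made up between 38.6% and 43.8% of all receptor RNA per kb.

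Fzd6, a receptor best known from planar polarity, was the flattest of the abundant receptors, at 35.2 and 33.6 CPM in RH/+ vehicle, 34.9 and 30.9 CPM in RH/RQ vehicle and 36.1 and 32.2 CPM in treated RH/RQ hearts. Its groups overlapped in every comparison. Fzd1 and Fzd7 both signal with Lrp6 through beta-catenin. Fzd1 stood at 12.1 and 12.6 CPM in RH/+ vehicle, 17.0 and 15.2 CPM in RH/RQ vehicle and 18.1 and 14.4 CPM in treated RH/RQ hearts. The 4 RH/RQ libraries lay above both RH/+ libraries, with log2 fold changes of 0.36 in both comparisons with RH/+ (limma adjusted p = 0.166 and 0.193). Fzd7 was at 11.3 and 13.1 CPM in RH/+ vehicle, 13.1 and 13.7 CPM in RH/RQ vehicle and 15.9 and 15.4 CPM in treated RH/RQ hearts. Its treated libraries were the highest, with a log2 fold change of 0.34 against RH/+ vehicle (limma adjusted p = 0.219).

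Fzd2, which also binds Wnt5a, stood at 4.28 and 5.19 CPM in RH/+ vehicle, 5.25 and 7.30 CPM in RH/RQ vehicle and 7.33 and 6.38 CPM in treated RH/RQ hearts. The RH/+ libraries were the lowest, and the log2 fold change of treated RH/RQ against RH/+ vehicle was 0.46 (limma adjusted p = 0.205). Fzd5 and Fzd8 are close relatives that act through beta-catenin. Fzd8 was at 6.51 and 7.24 CPM, then 6.17 and 7.89 CPM, then 9.15 and 7.12 CPM in the same order of groups, and Fzd5 at 7.09 and 6.41 CPM, 6.57 and 6.91 CPM, and 5.35 and 6.62 CPM. For both genes the groups overlapped in all 3 comparisons. Fzd3, known from axon guidance, stood at 3.20 and 2.71 CPM in RH/+ vehicle, 2.53 and 1.83 CPM in RH/RQ vehicle and 2.07 and 2.48 CPM in treated RH/RQ hearts, with the RH/+ libraries highest and a log2 fold change of -0.32 between the vehicle groups (limma adjusted p = 0.398). Fzd9, known from brain and bone, was at 1.5 and 1.45 CPM, 1.67 and 1.60 CPM, and 1.38 and 2.14 CPM, and the treated pair enclosed all others. Fzd10 had 4 reads over the 6 libraries.

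Of the 9 tested receptors, 8 had a log2 fold change above 0 by limma between treated and vehicle RH/RQ hearts, where 60.5% of all genes had, and 6 of 9 with TMM scaling, under which Fzd1 and Fzd6 fell below 0. Their median was 0.05 against 0.04 over all genes. Summed receptor RNA was 165 and 165 CPM in RH/+ vehicle, 174 and 162 CPM in RH/RQ vehicle and 198 and 184 CPM in treated RH/RQ hearts.

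Wnt5a, the best known ligand of signalling without beta-catenin, was the only ligand that limma, edgeR or DESeq2 called. Its gene lies on the plus strand of chromosome 14 at 28504750 to 28527448, where Gm2670 overlaps on the other strand; without a stated strand setting their reads cannot be separated. Wnt5a stood at 17.0 and 16.5 CPM in RH/+ vehicle, at 19.2 and 18.2 CPM in RH/RQ vehicle and at 14.6 and 13.7 CPM in treated RH/RQ hearts. Both treated libraries were below the other 4, and no groups overlapped. Its log2 fold change in treated against vehicle RH/RQ hearts was -0.38 by limma (SE 0.13; adjusted p = 0.149), which did not pass. On the reads behind the CPM values the change was -0.47 by edgeR (adjusted p = 0.0372) and by DESeq2 (adjusted p = 0.0345), which passed. The authors' deposited table held -0.464 with an adjusted p of 0.135 for it. Against RH/+ vehicle the change was -0.23 by limma (adjusted p = 0.407) and -0.35 by edgeR (adjusted p = 0.163).

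The sum of the epicardial and mesothelial markers was also low in the treated libraries. Their 7 genes summed to 17.8 and 15.0 CPM there, against 20.4 and 29.6 CPM in RH/RQ vehicle and 25.2 and 22.1 CPM in RH/+ vehicle hearts. By limma 0 of 7 were called between treated and vehicle RH/RQ hearts, with 4 at an unadjusted p under 0.05. Against RH/+ vehicle 5 of 7 were below 0 by limma, which called 1 lower, while edgeR called 2 and DESeq2 called 0. Wt1 and Krt8 went the other way there, with means of 7.47 against 7.15 CPM and 0.583 against 0.329 CPM. The part of these markers in the Wnt5a values was not tested. Per 1000 CPM of fibroblast markers, Wnt5a was at 3.82 and 4.20 CPM in treated hearts and at 6.28 to 7.81 CPM in the other 4 libraries. With Gsn left out of the sum the values were 9.41 and 10.4 CPM against 13.2 to 19.0 CPM.

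The other ligands with a mean of at least 1 CPM were not called. Wnt9a, which acts in joint and valve development, stood at 8.19 and 6.86 CPM in RH/+ vehicle, at 8.02 and 8.87 CPM in RH/RQ vehicle and at 10.3 and 8.38 CPM in treated RH/RQ hearts. Treated libraries overlapped with RH/RQ vehicle and lay above RH/+ vehicle, with a log2 fold change of 0.28 (limma adjusted p = 0.439). Wnt11, a ligand of heart development that acts largely without beta-catenin, was at 4.94 and 7.09 CPM in RH/+ vehicle, 5.78 and 4.74 CPM in RH/RQ vehicle and 5.65 and 4.30 CPM in treated RH/RQ hearts, and all groups overlapped. Wnt5b, the close relative of Wnt5a, was at 2.89 and 3.23 CPM in RH/+ vehicle, 3.59 and 3.58 CPM in RH/RQ vehicle and 4.47 and 3.59 CPM in treated RH/RQ hearts. Its RH/+ libraries were the lowest, and its log2 fold change in treated RH/RQ against RH/+ vehicle was 0.30 (limma adjusted p = 0.442), opposite in sign to the -0.23 of Wnt5a. Wnt2b, which signals through beta-catenin, stood at 1.68 and 1.75 CPM, 2.39 and 1.88 CPM, and 2.65 and 2.03 CPM in the same order of groups, lowest in both RH/+ libraries. Its log2 fold change in treated RH/RQ against RH/+ vehicle was 0.29 (limma adjusted p = 0.476).

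The other 4 tested ligands, Wnt10b, Wnt2, Wnt6 and Wnt9b, had means under 1 CPM, with 40 to 110 reads each over the 6 libraries. Wnt9b, a ligand of kidney development, had its highest value in RH/RQ vehicle replicate 1, at 0.706 CPM against 0.131 to 0.331 CPM elsewhere. Wnt2, which is needed for lung and early heart development, reached 0.372 CPM in RH/RQ vehicle replicate 1 and 0.331 CPM in treated replicate 1, and at most 0.105 CPM in the rest. Replicates of 1 group thus differed severalfold in Wnt2 and Wnt9b, and none of these 4 genes was called. Wnt1, Wnt4, Wnt7b, Wnt8b, Wnt10a and Wnt16 were not tested, with 2 to 27 reads each over all libraries. Wnt1 lies 11707 bases from Wnt10b on chromosome 15 and Wnt10a 6194 bases from Wnt6 on chromosome 1, pairs in which only the latter gene passed the filter.

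Summed ligand RNA was 35.5 and 36.5 CPM in RH/+ vehicle, 40.8 and 38.5 CPM in RH/RQ vehicle and 39.7 and 32.9 CPM in treated RH/RQ hearts. The treated pair enclosed all RH/+ and 1 of the RH/RQ vehicle values. Wnt5a made up between 26.9% and 28.5% of ligand RNA per kb in the vehicle libraries of both genotypes and 20.0% and 23.6% in the treated ones, a share for which no test was run.

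Between the vehicle groups, 10 of the 24 tested members were higher in both RH/RQ libraries than in both RH/+ libraries and 2 were lower in both, where 30.8% and 18.5% of all genes were. For treated against vehicle RH/RQ the counts were 5 and 3, where 26.2% and 14.4% of all genes were. For treated RH/RQ against RH/+ vehicle they were 12 and 2, where 35% and 9.66% of all genes were. The members' median log2 fold changes were 0.16, 0.05 and 0.22 in this order of comparisons. These comparisons are not independent, since each pair of them shares the libraries of 1 group.

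**Figure D4:**
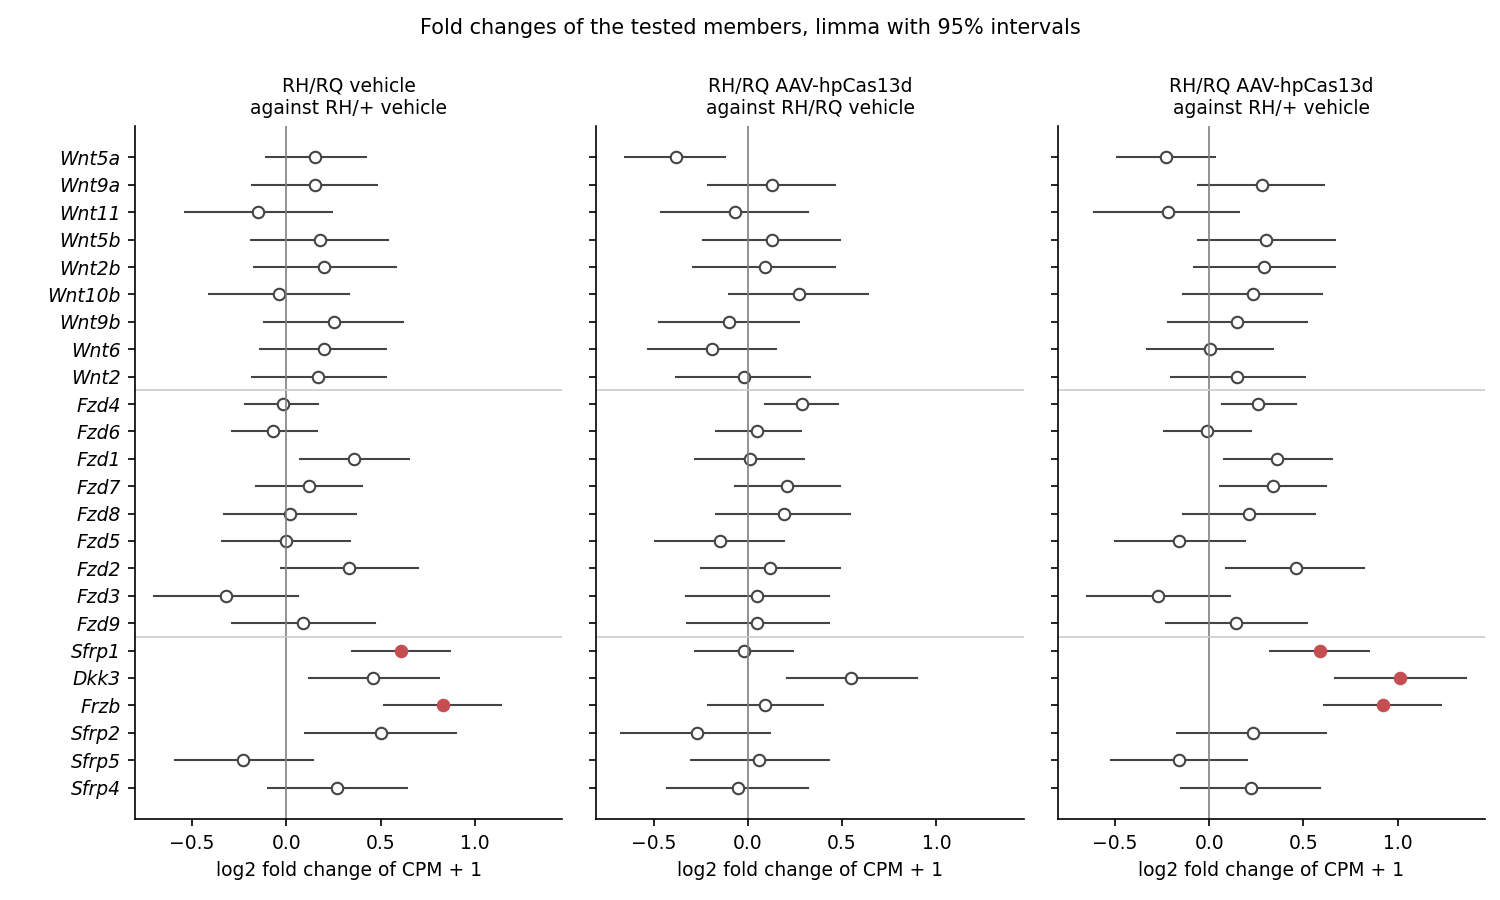
Log2 fold change of CPM + 1 for the 24 tested members in the 3 comparisons, with 95% intervals from limma. Filled red points have an adjusted p under 0.05, and members are ordered ligands, receptors, inhibitors. The called members are Frzb and Sfrp1 in the first comparison, none in the middle one, and Frzb, Sfrp1 and Dkk3 in the last.

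Other genes of the pathway were taken as lists of coreceptors and modulators, intracellular components, and target genes of beta-catenin. Of 103 listed genes 91 were tested, some of them on more than 1 list. Between the vehicle groups 6 of the 91 rose and 0 fell by limma (6.59%, beside 4.99% of all genes), and edgeR called 4 (beside 5.46%). Among 28 tested coreceptors and modulators, Mcc, a negative regulator of beta-catenin, rose by a log2 fold change of 0.42 (limma adjusted p = 0.0228), and Kremen1, a receptor for Dkk proteins, rose by 0.32 (limma adjusted p = 0.0438). Sost, which blocks Lrp5 and Lrp6, had the next smallest p, with means of 0.73 and 0.25 CPM in RH/+ and RH/RQ vehicle hearts. Among 52 intracellular genes, Apc, a scaffold of the complex that destroys beta-catenin, rose by 0.36 (limma adjusted p = 0.0434). Kremen1 and Apc did not pass by edgeR (adjusted p = 0.142 and 0.0993) or by DESeq2 (adjusted p = 0.0831 and 0.12).

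Among the 20 tested target genes, 3 rose between the vehicle groups, and limma, edgeR and DESeq2 called 3 each (15%). Of all genes tested they called 4.99%, 5.46% and 5.64%. Tbx3, a transcription factor of the conduction system, stood at 18.3 and 21.1 CPM in RH/+ vehicle, at 30.7 and 28.8 CPM in RH/RQ vehicle and at 18.1 and 15.8 CPM in treated RH/RQ hearts. The RH/RQ vehicle libraries were the highest, and both treated libraries lay below both RH/+ libraries. Tbx3 rose between the vehicle groups by a log2 fold change of 0.57 (limma adjusted p = 0.00595) and fell by 0.78 between treated and vehicle RH/RQ hearts (limma adjusted p = 0.000594). The RH/RQ vehicle libraries were also the only ones with Ddx3y reads, so sex cannot be told apart from genotype or treatment in these changes. Bambi, a decoy receptor of TGF-beta signalling, stood at 19.4 and 15.9 CPM in RH/+ vehicle, 28.6 and 27.1 CPM in RH/RQ vehicle and 25.8 and 19.1 CPM in treated RH/RQ hearts. It rose by 0.63 between the vehicle groups (limma adjusted p = 0.00617) and changed by -0.31 with treatment (limma adjusted p = 0.337). Myc, a growth-promoting transcription factor, rose from 2.38 to 4.34 CPM on average, a log2 fold change of 0.66 (limma adjusted p = 0.0286).

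The target list as a whole had median log2 fold changes of 0.17, -0.14 and 0.10 in the 3 comparisons, beside 0.04, 0.04 and 0.08 over all genes. By edgeR they were 0.28, -0.33 and 0.03, and by DESeq2 0.30, -0.33 and 0.03. Sex differed in both comparisons with RH/RQ vehicle hearts and not in the last. Between treated and vehicle RH/RQ hearts 16 of the 20 target genes were below 0 by limma and 18 by edgeR and by DESeq2. Of all 16804 genes tested, 6629 were below 0 by limma, 8520 by edgeR and 8502 by DESeq2. Between treated and vehicle RH/RQ hearts limma called Tbx3 alone among the 91 pathway genes, while edgeR also called Mcc. In treated RH/RQ against RH/+ vehicle hearts limma called 0 of 91 pathway genes, with 13 (14.3%) at an unadjusted p under 0.05, where 15.1% of all genes were, and edgeR called 0 with 8 (8.79%), where 12.6% of all genes were. Leaving out RH/RQ vehicle replicate 1 brought the count between the vehicle groups to 0, and leaving out RH/+ replicate 1 brought it to 1.

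Axin2, a negative regulator that beta-catenin itself switches on in many tissues, was singled out after its values were seen. It stood at 3.54 and 5.29 CPM in RH/+ vehicle, at 4.41 and 4.69 CPM in RH/RQ vehicle and at 4.0 and 5.43 CPM in treated RH/RQ hearts. The groups overlapped in every comparison, and the log2 fold changes were 0.05, 0.03 and 0.09 (limma adjusted p = 0.931, 0.969 and 0.883). The coreceptors Lrp5 and Lrp6 ranged from 61.0 to 74.6 CPM and from 66.4 to 79.7 CPM over the 6 libraries, and neither was called.

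Promoters of the members were read for the core that TCF/LEF factors, the DNA-binding partners of beta-catenin, recognise. The letters searched were CTTTGA and CTTTGT on both strands, in RefSeq windows of 250 bases before to 50 after the start of each gene (GRCm38.p6). A window was available for 23 of the 33 members, Frzb among them but not Sfrp1, Dkk3 or Wnt5a. A gene with several annotated starts could have several windows. Wnt5b and Wnt11 did, and each had 1 match in a window and 0 in its others. A match lay in 8 of the 23 (34.8%) and in 34.5% of the 27025 genes with a window, so the members held it about as often as other genes. Matches in the members with a mean of at least 1 CPM are shown with up to 10 bases on each side, 5′ to 3′ on the strand of the gene, with the matched core in capitals (TCAAAG and ACAAAG are the same cores on the other strand). None of the matches shown overlaps another. They are matches of letters only, and say nothing of binding.
Frzb, chr2:80447476-80447501, minus strand: ccctgaaaacTCAAAGccttctcgga
Fzd1, chr5:4758443-4758466, minus strand: cgcagcacTCAAAGtagcagtctg
Fzd1, chr5:4758238-4758263, minus strand: catagctactCTTTGTgccggagcgg
Fzd7, chr1:59482008-59482033, plus strand: cacagagaaaACAAAGcgcgctattg
Wnt11, chr7:98835052-98835077, plus strand: cgtgggcggaTCAAAGcgacggtccg
Wnt5b, chr6:119449442-119449467, minus strand: gtaagtctctCTTTGAtctgctccct
In Frzb the core begins at -95 from the RefSeq start, and in Fzd1 at -242 and -37. By GENCODE, Frzb and Wnt5b, both on the minus strand, begin further out, at 80447625 and 119544347. Their matches therefore lie inside the GENCODE spans of the genes and are upstream of a RefSeq start only. Of the genes shown, Frzb was the only one called in any comparison. The members' windows had a median GC content of 66.5%, against 52.7% over all windows.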

How the data were processed

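Poly-T beads took up mRNA out of 1 µg of total heart RNA, per the labels' protocols. The submitters' processing notes name mm10 as the build and HISAT2, HTSeq and DESeq2 as tools; their versions, strand setting and annotation are not given in the sources used here. The authors deposited 3 tables with CPM values of 4 libraries each, scaled so that every library has the same sum; the same libraries held the same values in every table that listed them. Per the file headers, the deposited tables also hold log2 fold changes and p-values, used here only where named as the authors', a Wald score and a mean signal per gene, of which the last 2 were not used.

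Whole reads could be recovered for 100% of the CPM values (within 0.001 read). Genes not listed in a table were taken as 0 reads. limma 3.58.1 in R 4.3.3 with a trend was fitted to log2(CPM + 1) over all 6 libraries, with 3 group means and no covariate, on 16804 genes kept by filterByExpr at a minimum count of 10; tests were two-sided with Benjamini-Hochberg adjustment at 0.05. Alternatives were edgeR 4.0.16 and DESeq2 1.42.0 on the recovered reads, TMM scaling, pseudocounts of 0.1 and 5, no filter, a mean of at least 1 CPM, a fit on 4 libraries only, a replicate block and each library left out. The limma, edgeR and DESeq2 steps were tested on simulated data. Exon lengths and positions came from GENCODE M21, in which all 33 members matched. Members called by limma or edgeR, or with a mean of at least 1 CPM, are given with every library; of each pathway list the 3 genes with the smallest p in each comparison were eligible to be named. The members and lists were chosen with earlier results of these data known.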

Additional observations from a re-analysis of the deposited data

How the results depend on the processing

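Frzb kept its call in 14 of 15 alternative settings in both comparisons with RH/+ vehicle, and Dkk3 in 14 of 15 in treated RH/RQ against RH/+ vehicle; the exception each time was the fit with no filter on low genes, which called 52 genes higher and 5 lower between the vehicle groups, and 5 higher and 2 lower in treated RH/RQ against RH/+ vehicle. Sfrp1 kept its call in 13 of 15 settings between the vehicle groups and in 12 of 15 for treated RH/RQ against RH/+ vehicle. With no filter the count of called members was 0 between the vehicle groups and 0 in treated RH/RQ against RH/+ vehicle, and the count of called pathway genes was 0 between the vehicle groups and 0 between treated and vehicle RH/RQ; the cause was not tested. Between treated and vehicle RH/RQ hearts, 1 member was called by edgeR, 1 by DESeq2 (Wnt5a both times) and 1 with a replicate block (Dkk3), and pathway genes numbered 2 by edgeR, 2 by DESeq2, 2 with TMM factors and 3 with the replicate block.

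The leading digit of the sample titles was tried as a replicate block. The correlations of same-numbered libraries' deviations were 0.13, -0.0205 and 0.0742. With 2 libraries per group, they cannot settle whether same-numbered samples share more than a number. With the block limma called 781 genes higher and 392 lower between the vehicle groups, against 585 and 253 without it. The block added Dkk3 between the vehicle groups (3 members called; limma adjusted p = 0.0364 for Dkk3) and between treated and vehicle RH/RQ hearts (log2 fold change 0.55, limma adjusted p = 0.0179).

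With 1 library left out in turn, called members numbered 1 to 3 between the vehicle groups and 0 to 1 between treated and vehicle RH/RQ, and called pathway genes 0 to 8 between the vehicle groups and 0 to 4 in treated RH/RQ against RH/+ vehicle. Some small log2 fold changes, none of them called, changed sign. With edgeR, DESeq2 and TMM factors, Fzd1 became -0.047, -0.0461 and -0.0481 and Fzd6 became -0.00367, -0.00285 and -0.00281 between treated and vehicle RH/RQ, and Fzd8 became -0.0174, -0.0181 and -0.0195 between the vehicle groups. With 1 library left out, values between the vehicle groups ranged from -0.107 to 0.0635 for Fzd4, -0.0643 to 0.0613 for Fzd5, -0.15 to 0.0181 for Fzd6, -0.133 to 0.176 for Fzd8 and -0.374 to 0.0725 for Wnt11. Between treated and vehicle RH/RQ they ranged from -0.149 to 0.163 for Fzd1, -0.0809 to 0.327 for Fzd2, -0.111 to 0.207 for Fzd3, -0.0299 to 0.138 for Fzd6, -0.146 to 0.253 for Fzd9, -0.148 to 0.102 for Sfrp1, -0.236 to 0.092 for Wnt11, -0.045 to 0.222 for Wnt2b and -0.00741 to 0.259 for Wnt9a. In treated RH/RQ against RH/+ vehicle they ranged from -0.0908 to 0.0672 for Fzd6, -0.0571 to 0.342 for Fzd9, -0.0148 to 0.468 for Sfrp2 and -0.447 to 0.000224 for Wnt11. Where a library was left out, its lone partner was assumed to vary like the other groups.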
